A study of Mus musculus with 5 samples.

Results

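The genes described here build or regulate cilia: 34 were listed, and 33 of them had at least 1 probe set that the array annotation assigns to that gene alone, out of 18193 genes measured in this way. Every such probe set was taken, 55 in all. The genes were ordered by role into 5 regulators, 21 genes of the motile axoneme and 8 genes of intraflagellar transport and the BBSome. Sntn, a protein of the tips of motile cilia, was the listed gene not analysed here.

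RNA was hybridised to Affymetrix Mouse Genome 430 2.0 arrays, which read transcripts near their 3' ends. Duct cells gave 3 arrays: TROP-2+ cells were sorted from what remained of the upper trachea once pronase had stripped its surface epithelium. Basal cells gave 2 arrays: TROP-2+ITGA6+ cells were sorted from surface epithelium of the lower trachea after dispase digestion. All mice were C57BL/6, male and female, 8 to 12 weeks old, with no genetic change or treatment given in the labels, and each array came from its own pool of 10 to 15 mice. Enzyme, tracheal section and sort gate differ together with the cell type, and their effects cannot be told apart from it. In sorted populations, fewer cells of a type and less RNA per cell cannot be told apart either.

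Motile cilia are the beating hairs of multiciliated airway cells, which move mucus along the tracheal surface. FOXJ1 and the RFX factors switch on the genes of the axoneme, the microtubule core with its dynein motors, radial spokes and central pair. Intraflagellar transport carries building material along the axoneme, and the BBSome carries membrane proteins. Most cell types, basal cells included, can also form a non-motile primary cilium, which needs intraflagellar transport and the BBSome and lacks the radial spokes and dyneins of the motile type. Basal cells are the stem cells of the tracheal surface and give rise to ciliated and secretory cells.

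RFX factors bind the X-box, a motif of imperfectly repeated arms. Because RFX genes are among the regulators, the start-site regions of the listed genes were searched for it on both strands, with 0 to 3 bases between the arms. RefSeq promoters (GRCm38.p6, 250 bases before to 50 bases after the start) matched 27 of the 34 genes, with 30 promoters. An X-box occurred in 6 of the 27 genes, and in 7 of the 30 promoters (23.3%), against 502 of all 32851 promoters (1.53%). The shorter half-site GTTGCC, which overlaps many X-boxes, occurred in 19 of the 30 promoters (63.3%), against 12.5% of all promoters. A match describes the letters and not the binding of a factor. The stretches that hold an X-box are shown because they are a sequence feature shared by genes of all 3 roles. Each runs 5′ to 3′ on the strand of the gene, with the X-box in capitals, and Ift57 holds 2 of them.
Ift57 (chr16:49699197-49699256, + strand): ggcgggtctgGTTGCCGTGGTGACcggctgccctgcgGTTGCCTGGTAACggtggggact
Hydin (chr8:110266948-110266977, + strand): actctgcgGTTGCTGTGGCAACagatggta
Lrrc23 (chr6:124779855-124779914, - strand): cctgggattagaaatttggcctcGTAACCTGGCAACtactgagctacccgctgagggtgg
Spag16 (chr1:69826844-69826903, + strand): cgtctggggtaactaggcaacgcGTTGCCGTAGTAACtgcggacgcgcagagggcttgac
Tekt2 (chr4:126325689-126325748, - strand): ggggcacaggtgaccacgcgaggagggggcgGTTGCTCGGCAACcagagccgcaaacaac
Ccno (chr13:112987560-112987619, + strand): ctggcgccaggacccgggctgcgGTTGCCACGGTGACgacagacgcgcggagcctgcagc
The promoters of Rfx2 and Rfx3 themselves held a half-site and no X-box, and that of Bbs4 held neither.

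The deposited values are linear intensities in arbitrary units that had been scaled to a common trimmed mean on every array. The brightest of 27 probe sets for Bacillus transcripts, which mouse RNA does not contain, served as the background level: it lay between 39.5 and 61.9 on the duct arrays, and at 59.7 and 86.5 on the basal arrays. The median intensity was 92.3 on duct array 1 and between 146.5 and 152.8 on the other 4 arrays. Krt14, a keratin of basal and gland duct cells, averaged 19816 ± 2251 in duct cells and 1430 ± 146 in basal cells, the largest difference among 11 listed basal cell markers. Of these markers, 5 were higher and 6 lower in duct cells by fold change, beside 57.5% of all genes lower. In limma's test 2 of the 11 were called, Krt14 and Krt17, both higher, against 0.973% of all 12536 tested genes. Ngfr, a receptor of airway basal cells, averaged 542 ± 186 in duct cells and 1806 ± 20.4 in basal cells (log2 fold change -1.76, adjusted p = 0.0786). All 11 basal cell markers were above background on every array, beside 11027 of all 18193 genes. So were 15 of 16 club (secretory) cell markers, 6 of 13 leukocyte markers and 0 of 6 neuroendocrine and tuft cell markers. Itga6, whose protein was used to gate the basal cells alone, measured 6011, 6217 and 6346 in duct cells, against 5954 and 4545 in basal cells.

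**Figure D1:**
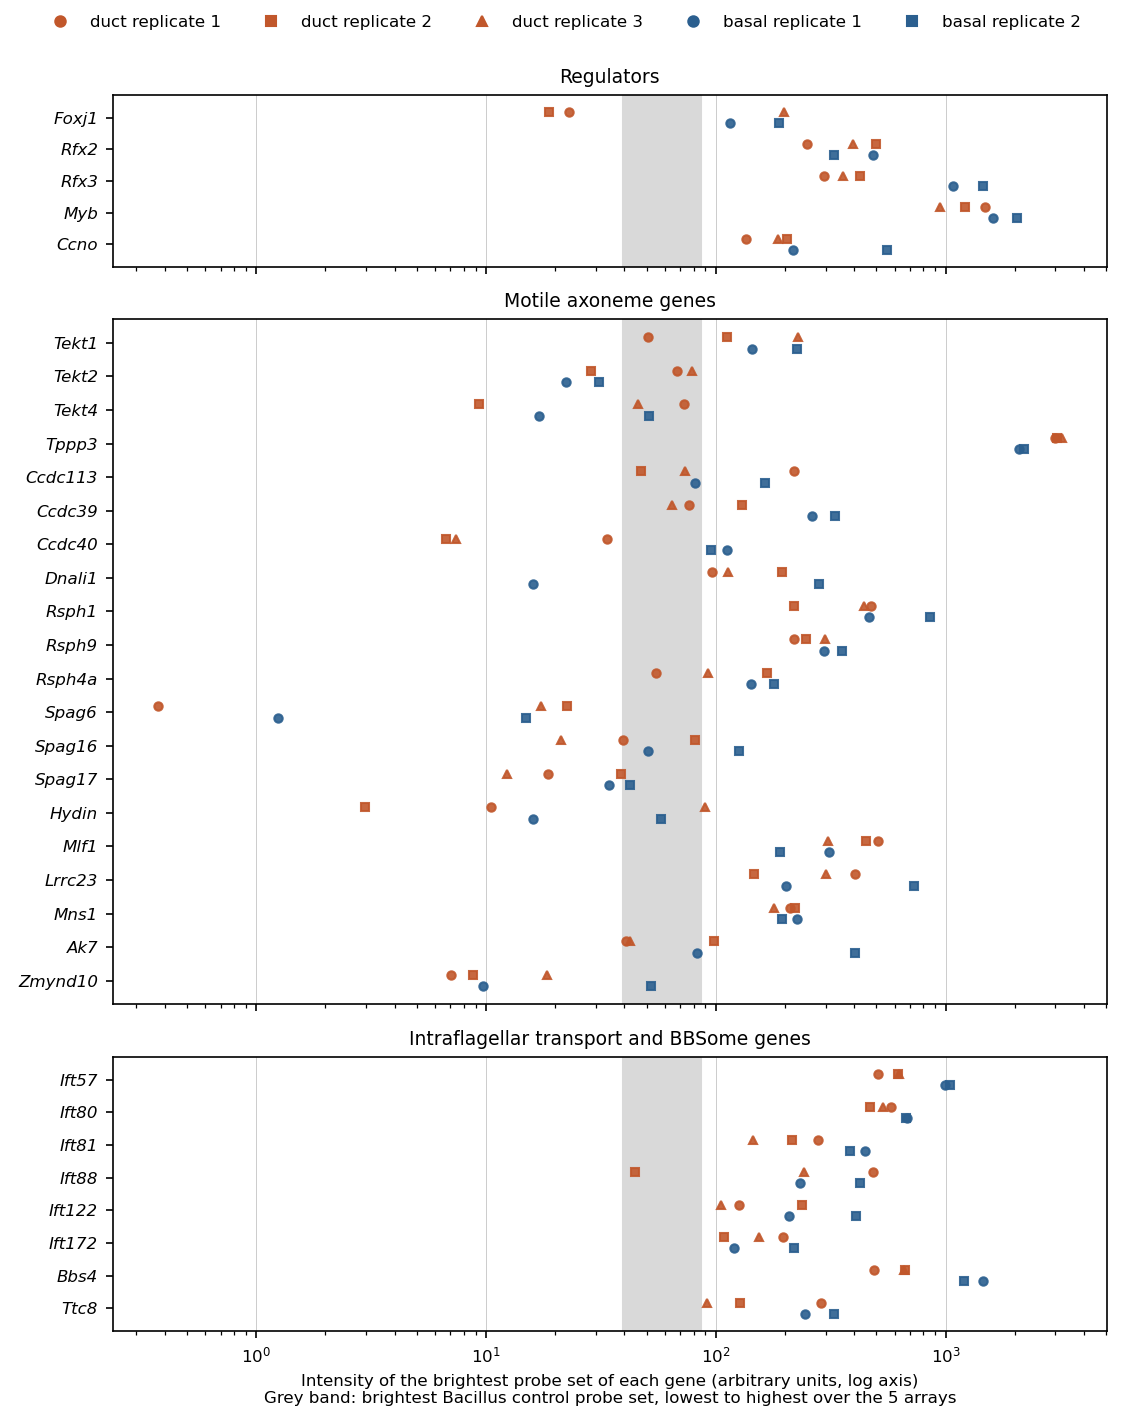
Intensity (arbitrary units, log axis) of the most intense probe set of each cilia gene on each of the 3 duct and 2 basal arrays, by role; the grey band spans the brightest Bacillus control over the 5 arrays. Many motile axoneme genes lie in or near the band, whereas 7 of the 8 intraflagellar transport and BBSome genes were above it on every array by the array's own control.

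The most intense probe set stood for each gene, and 20 of the 33 genes were above background on all 5 arrays. These were 4 of 5 regulators, 9 of 20 motile axoneme genes and 7 of 8 transport and BBSome genes. Of all 18193 genes, 11027 were above background on all 5 arrays. That is about the same share as for the 33 cilia genes, and a larger one than for the motile axoneme genes. The motile axoneme genes above background numbered 15, 12 and 13 of 20 on the duct arrays, against 12 and 14 on the basal arrays. The transport and BBSome genes numbered 8, 7 and 8 of 8 on the duct arrays, against 8 on both basal arrays. For both roles the counts of duct and basal arrays overlapped, at a background level that differed between arrays. The 20 genes above background on all 5 arrays became 14 with the control median plus 3 SD as background. The count over all genes was not taken at that level. They became 18 without possibly cross-hybridising probe sets.

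In duct cells, 27 of the 33 cilia genes (81.8%) were lower than in basal cells by their log2 fold change, beside 57.5% of all genes. The other 6 were higher, and no single cilia gene passed the threshold of an adjusted p of 0.05 over all genes. All fold changes set duct over basal cells, after 16 was added to each intensity before taking log2, so that those of dim genes are understated. Of the 33, 24 were bright enough to be tested, and 0 were called in limma's test, against 0.973% of all 12536 tested genes. At an unadjusted p under 0.05, 5 cilia genes were lower in duct cells (Rfx3, Ccdc39, Bbs4, Ift57 and Ift81) and 0 were higher, against 10.6% of all tested genes lower and 7.91% higher. With every probe set as its own unit, 31 of the 55 were tested and 0 were called, against 0.233% of all tested probe sets, and the smallest adjusted p was 0.110. A p above the threshold does not show that the populations were alike.

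Counting only whether the arrays separate, all 3 duct arrays lay below both basal arrays for 9 cilia genes: Ccno, Myb, Rfx3, Ccdc39, Ccdc40, Bbs4, Ift57, Ift80 and Ift81. The background for this was 19.2% of all genes. They lay above both for 1 gene, Tppp3, against 13.7% of all genes, and overlapped for the other 23. By role, the duct arrays were all lower for 3 of 5 regulators, 2 of 20 motile axoneme genes and 4 of 8 transport and BBSome genes. These counts are over few genes, and no difference between the roles was tested. The median log2 fold change was -0.95 for the regulators, -0.44 for the motile axoneme genes and -0.81 for the transport and BBSome genes, beside -0.12 for all genes. Centred on array medians, these medians were -0.74, -0.24 and -0.61, beside 0.09 for all genes.

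**Figure D2:**
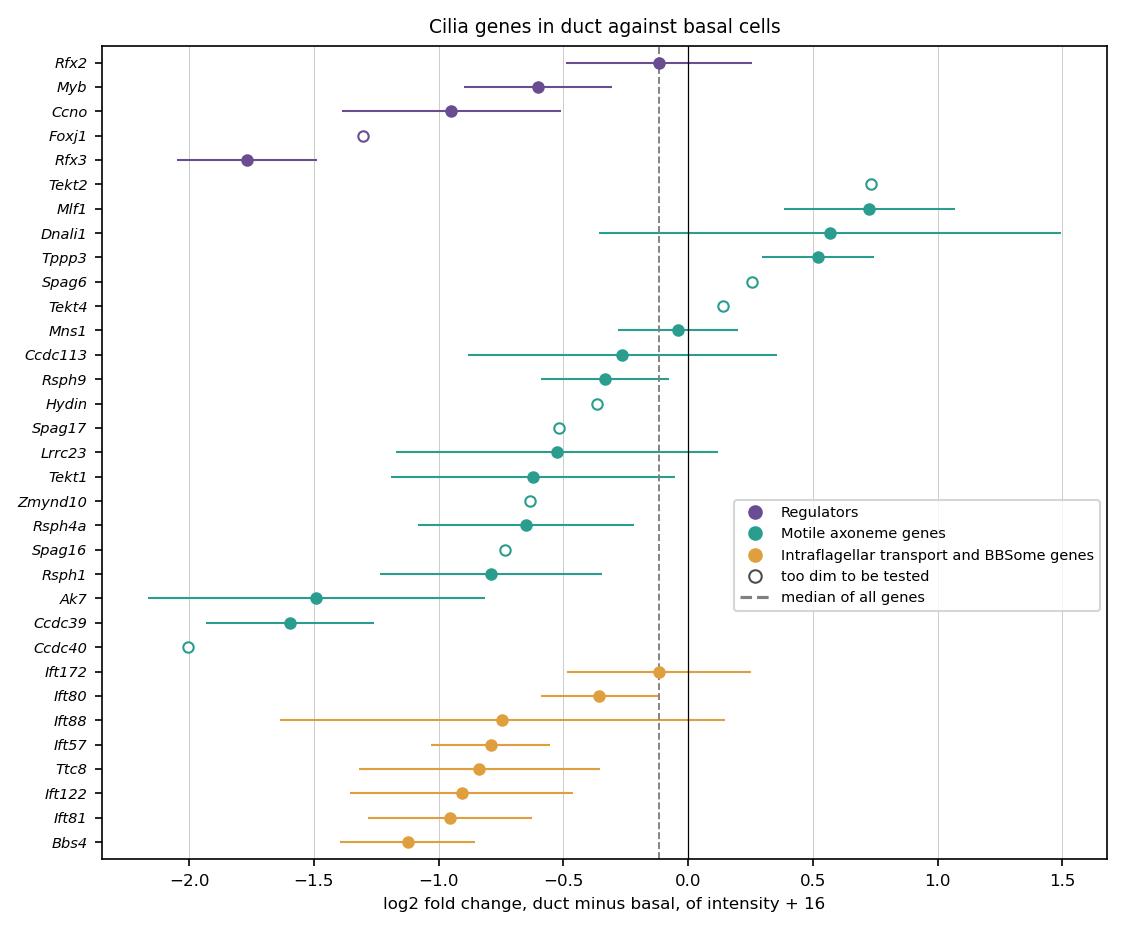
Log2 fold change of intensity + 16, duct minus basal, of each cilia gene by role; filled points are tested genes with bars of 1 standard error, open points were too dim to be tested, and the dashed line is the median of all genes. All 8 transport and BBSome genes and all 5 regulators lie below 0, while 6 of the 20 motile axoneme genes lie above it. Of these 6, Tekt2, Tekt4 and Spag6 were too dim to be tested.

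Among the regulators, the widest gap between the populations was that of Rfx3, an RFX factor needed for cilia formation. It measured 296, 424 and 359 in duct cells, against 1079 and 1452 in basal cells. Every duct array was well below both basal arrays, and the groups did not overlap. Its mean was 360 ± 63.8 in duct cells (SD, n = 3) and 1266 ± 263 in basal cells (SD, n = 2), a log2 fold change of -1.77 with a standard error of 0.28, or 3.41-fold lower in duct cells, with an adjusted p of 0.0625 from limma. Over the alternative settings that adjusted p ranged from 0.00642 to 0.304, and it passed the threshold in 5 of 16. A second, dimmer Rfx3 probe set measured 6.45, 24.8 and 12.0 in duct cells, against 302 and 169 in basal cells. All 3 duct values were below their array's background and both basal values above it. With the duct side held at that background, the intensity was at least 4.38-fold lower in duct cells. The control median plus 3 SD was higher, at 62.9, 83.0 and 106 on the duct arrays and 136 and 132 on the basal arrays. The duct values were below this level too and the basal values above it, but the bound it gives is smaller than 4.38-fold. This second Rfx3 probe set was too dim over the 5 arrays to be tested.

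Foxj1, the master regulator of motile ciliogenesis, was near background. It measured 23.0, 18.8 and 198 in duct cells, against 115 and 188 in basal cells. On duct arrays 1 and 2 it was below the background level, while duct array 3 was the highest of the 5, so the groups overlapped; it was too dim to be tested. Ccno, a cyclin-like protein required for making the many centrioles of a multiciliated cell, measured 135, 203 and 186 in duct cells, against 216 and 555 in basal cells. The groups did not overlap, but the lower basal array was close to the duct arrays, and basal array 2 set the size of the gap: the log2 fold change of -0.95 (adjusted p = 0.318) was -0.30 without basal array 2 and -1.60 without basal array 1.

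Myb, which acts early in multiciliated cell differentiation and also in dividing progenitor cells, measured 1478, 1211 and 941 in duct cells, against 1609 and 2046 in basal cells. All duct arrays were lower, by a log2 fold change of -0.60 with a standard error of 0.30 (adjusted p = 0.342). That probe set is of a kind that may cross-hybridise, and the other 2 Myb probe sets were also lower in duct cells, by log2 fold changes of -0.30 and -0.89. Rfx2, a further RFX factor of ciliated cells, measured 248, 499 and 396 in duct cells, against 485 and 327 in basal cells, and the groups overlapped (log2 fold change -0.12, adjusted p = 0.895). Its 4 probe sets differed in sign, 2 lower and 2 higher in duct cells, and the sign of the most intense one turned with the scaling, to 0.07 under quantile normalization.

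**Figure D3:**
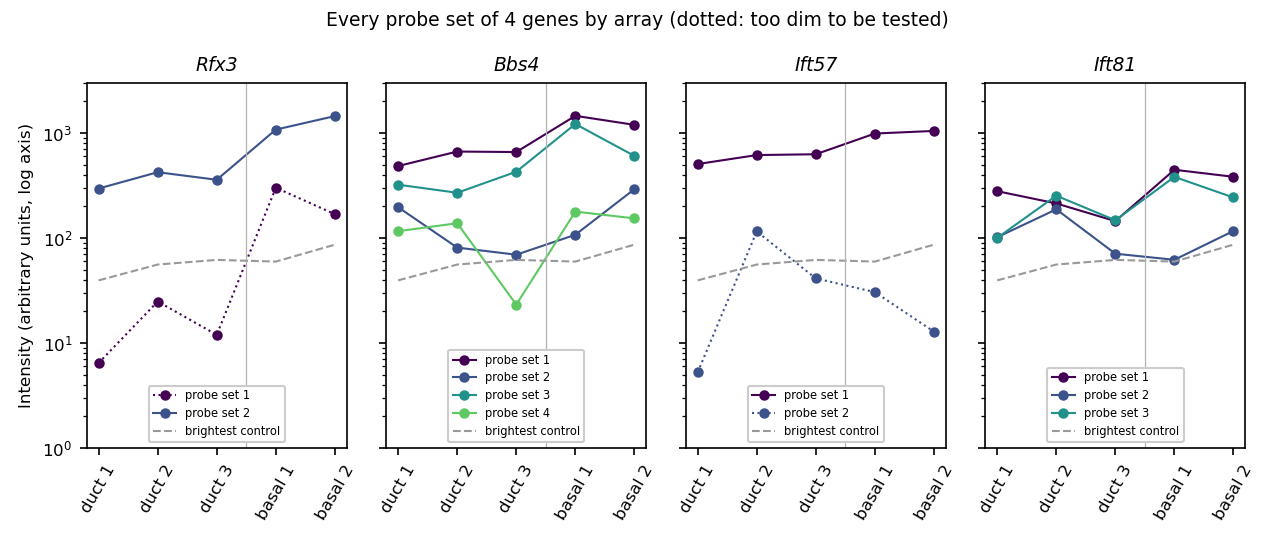
Intensity (arbitrary units, log axis) of every probe set of Rfx3, Bbs4, Ift57 and Ift81 on the 3 duct and 2 basal arrays, with the brightest Bacillus control of each array as a dashed line and probe sets too dim to be tested dotted. Both Rfx3 and all 4 Bbs4 probe sets averaged lower in duct cells, while the Ift57 and Ift81 probe sets differed in direction.

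Of the 20 motile axoneme genes, 14 (70.0%) were lower in duct cells by fold change and 6 were higher, beside 57.5% of all genes lower. Among the 6, Tekt2, Tekt4 and Spag6 were too dim to be tested and below background on both basal arrays. The sign of Dnali1 turned without basal array 1. Among the 14, Ccdc40, Spag16, Spag17, Hydin and Zmynd10 were also too dim to be tested. Tppp3, a tubulin polymerisation protein abundant in ciliated cells and present in other cell types too, was the one cilia gene higher on every duct array. It measured 2977, 3045 and 3202 in duct cells, against 2077 and 2200 in basal cells. The arrays of each group lay close together, and the log2 fold change was 0.52 with a standard error of 0.22 (adjusted p = 0.293). Mlf1, a protein found in airway cilia as well as in blood cells, measured 508, 452 and 307 in duct cells, against 310 and 191 in basal cells. The lowest duct array and the higher basal array were nearly equal, so the groups just overlapped (log2 fold change 0.73, adjusted p = 0.329; 0.40 without basal array 2).

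Ccdc39 and Ccdc40 form together the ruler that sets the spacing of inner dynein arms and radial spokes. Ccdc39 measured 76.6, 130 and 64.1 in duct cells, against 263 and 329 in basal cells. The groups did not overlap, and the log2 fold change was -1.60 with a standard error of 0.34 (adjusted p = 0.0963). That probe set is of a kind that may cross-hybridise; the other 2 were too dim to be tested and also lower in duct cells, and the log2 fold change was -0.55 with probe sets of that kind left out and -1.08 with the mean of all 3. Ccdc40 measured 33.5, 6.69 and 7.38 in duct cells, against 112 and 95.4 in basal cells. All duct arrays were below background and both basal arrays above it, so it was at least 2.01-fold lower in duct cells, with no test at this brightness. With the control median plus 3 SD as background (136 and 132 on the basal arrays), both basal values were below it. No such bound holds at that level.

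Rsph1, Rsph9 and Rsph4a belong to the radial spokes, which pass signals from the central pair to the dyneins, and each overlapped between the groups. Rsph1 measured 471, 219 and 440 in duct cells, against 465 and 852 in basal cells, with basal array 2 standing highest (log2 fold change -0.79, adjusted p = 0.401). Its fold change was -0.36 without basal array 2 and -1.22 without basal array 1. Rsph9 averaged 254 ± 39.6 in duct cells and 324 ± 41.6 in basal cells, and Rsph4a averaged 105 ± 56.5 in duct cells and 161 ± 25.5 in basal cells (adjusted p = 0.533 and 0.475). Ak7, an adenylate kinase of motile cilia, measured 40.7, 97.9 and 42.5 in duct cells, against 82.6 and 403 in basal cells. Basal array 1 lay within the duct range and basal array 2 far above it (log2 fold change -1.49, standard error 0.67, adjusted p = 0.311). Its fold change was -0.45 without basal array 2 and -2.53 without basal array 1. Dnali1, an inner dynein arm light chain, measured 96.4, 194 and 113 in duct cells, against 15.99 and 282 in basal cells. The basal arrays enclosed the duct arrays, and the log2 fold change of 0.57 (standard error 0.93, adjusted p = 0.781) became -1.04 without basal array 1; its second probe set, below background on all arrays, had the opposite sign.

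Other tested axoneme genes overlapped as well. Lrrc23, a radial spoke protein, averaged 284 ± 129 in duct cells and 464 ± 371 in basal cells, and Tekt1, a tektin filament protein, averaged 130 ± 89.4 in duct cells and 185 ± 58.3 in basal cells. Ccdc113, a coiled-coil protein of cilia, averaged 113 ± 92.5 in duct cells and 122 ± 58.6 in basal cells. Mns1, an axonemal filament protein, averaged 203 ± 21.4 in duct cells and 209 ± 21.6 in basal cells, so its difference was smaller than the spread within either group (log2 fold change -0.04, adjusted p = 0.944).

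The remaining axoneme genes were too dim to be tested. The tektins Tekt2 and Tekt4 averaged 58.1 ± 26.2 and 42.6 ± 31.8 in duct cells, against 26.6 ± 6.05 and 34.02 ± 24.1 in basal cells. The central pair genes Spag16 and Hydin averaged 47.3 ± 30.7 and 34.5 ± 48.2 in duct cells, against 88.4 ± 53.3 and 36.8 ± 29.5 in basal cells. Spag6 and Spag17, also of the central pair, and Zmynd10, a dynein arm assembly factor, were above background on no array by their most intense probe set. A second Spag17 probe set was above background on 2 duct arrays, and the probe sets of Spag16 and of Spag17 differed in sign.

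The basal arrays differed from each other in these genes. Basal array 2 was above basal array 1 for 17 of 20 motile axoneme genes (85.0%), with a median ratio of 1.70, against 50.02% of all genes with a median ratio of 1.00. Of the 17, Tekt2, Tekt4, Spag6, Spag17, Hydin and Zmynd10 were below background on both basal arrays, so their ratios compare background values. The background itself was higher on basal array 2 (86.5 against 59.7). The count with basal array 2 higher was 5 of 8 for the transport and BBSome genes and 4 of 5 for the regulators. Among 71 further motile cilia genes it was 35 (49.3%), so no such majority was seen in that list. The club cell markers were higher on basal array 2 for 13 of 16 genes (81.2%), and their summed intensity was 179106, 152742 and 180310 on the duct arrays, against 181926 and 254764 on the basal arrays. The part of club cells, or of cells changing from basal to luminal types, in the cilia gene values was not tested. The median log2 fold change of the motile axoneme genes was -0.04 without basal array 2 and -0.86 without basal array 1, whereas that of the transport and BBSome genes stayed between -0.92 and -0.55 whichever single array was left out. With the mean of each gene's probe sets, the transport and BBSome median was -0.49.

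**Figure D4:**
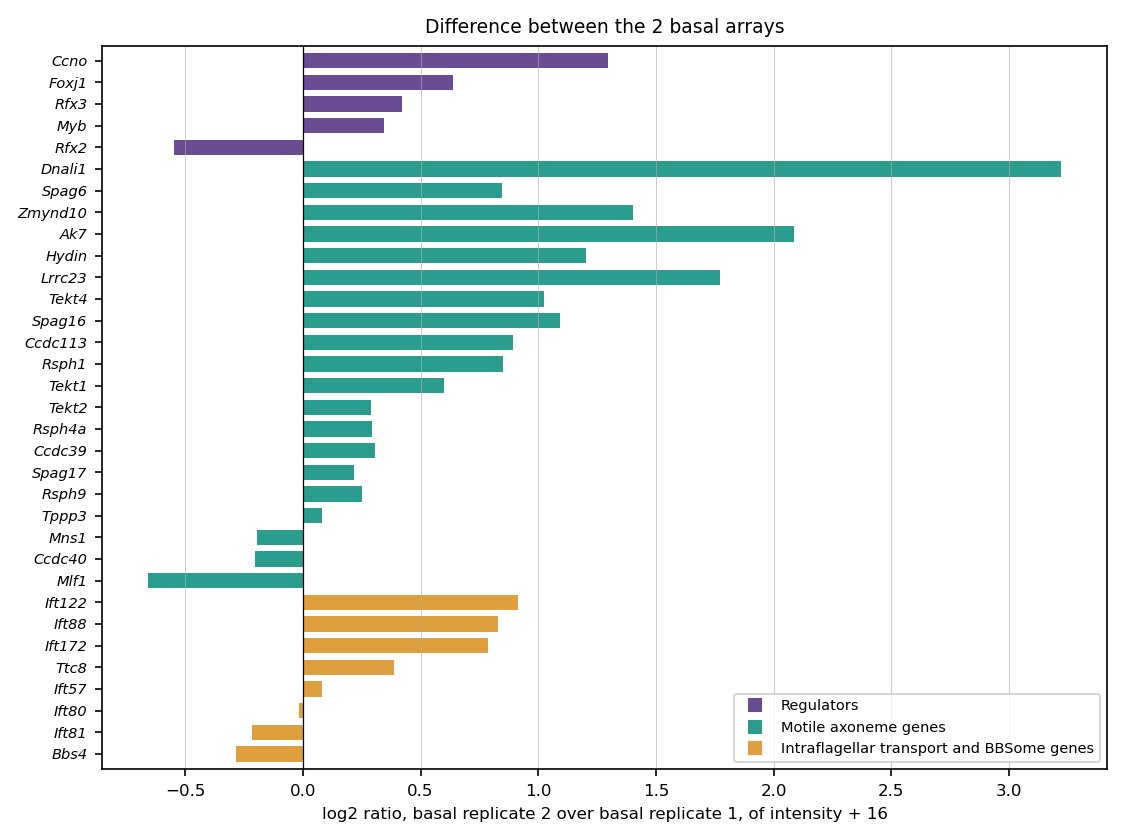
Log2 ratio of intensity + 16 on basal replicate 2 over basal replicate 1 for each of the 33 cilia genes, by role. Bars to the right are higher on basal replicate 2, which holds for 17 of 20 motile axoneme genes, 5 of 8 transport and BBSome genes and 4 of 5 regulators. Tekt2, Tekt4, Spag6, Spag17, Hydin and Zmynd10 were below background on both basal arrays.

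By their most intense probe sets, all 8 genes of intraflagellar transport and the BBSome were lower in duct cells, beside 57.5% of all genes. Not every sign held under the other settings, as given below for Ift88 and Ift122. Bbs4, a BBSome subunit, measured 486, 667 and 660 in duct cells, against 1460 and 1198 in basal cells. The groups were well apart, with a mean of 604 ± 103 in duct cells and 1329 ± 186 in basal cells, and the log2 fold change of -1.12 had a standard error of 0.27, or 2.18-fold lower in duct cells (adjusted p = 0.119). All 4 of its probe sets were lower in duct cells. Ttc8, a further BBSome subunit, averaged 169 ± 105 in duct cells and 286 ± 56.9 in basal cells (log2 fold change -0.84, adjusted p = 0.409).

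Of the anterograde complex, IFT-B, 3 genes separated the groups. Ift57 measured 507, 617 and 629 in duct cells, against 990 and 1048 in basal cells, and the arrays within each group were close (log2 fold change -0.79, standard error 0.24, adjusted p = 0.177). Its second probe set was above background on 1 array only and had the opposite sign, and with the mean of both the log2 fold change was -0.11 (adjusted p = 0.926). Ift81, which binds tubulin cargo, measured 280, 214 and 145 in duct cells, against 447 and 383 in basal cells (log2 fold change -0.95, standard error 0.33, adjusted p = 0.215). Of its 3 probe sets, 2 were lower and 1 higher in duct cells, with a log2 fold change of -0.51 by their mean. Ift80 measured 581, 469 and 531 in duct cells, against 681 and 672 in basal cells, a small but separate gap (log2 fold change -0.36, adjusted p = 0.472).

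Ift88, an IFT-B subunit whose loss abolishes cilia, varied more within than between the groups. It measured 481, 44.4 and 241 in duct cells, against 233 and 426 in basal cells, and duct array 2 alone was below background. The log2 fold change of -0.75 (standard error 0.89, adjusted p = 0.698) became 0.11 without duct array 2. Ift122, of the retrograde complex IFT-A, measured 127, 238 and 105 in duct cells, against 208 and 406 in basal cells (log2 fold change -0.91, adjusted p = 0.343), and the groups overlapped. Its fold change was -0.45 without basal array 2. Its second probe set was below background on every array, with the opposite sign, and the mean of both gave -0.28. Ift172, of IFT-B, averaged 152.8 ± 43.1 in duct cells and 170 ± 69.9 in basal cells. Its groups overlapped, with a fold change near 0 (log2 fold change -0.12, adjusted p = 0.892).

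Further genes of the same pathways were read from wider lists. Of 55 other intraflagellar transport, BBSome and transition zone genes, 52 were tested and 0 were called; 8 (15.4% of those tested) were lower and 0 higher at an unadjusted p under 0.05, beside 10.6% and 7.91% of all tested genes. The duct arrays were all lower for 24 (43.6%) and all higher for 2, beside 19.2% and 13.7% of all genes, and the median log2 fold change was -0.52. Ttc30b, an IFT-B subunit, measured 62.0, 93.5 and 39.3 in duct cells, against 304 and 326 in basal cells (log2 fold change -2.09, adjusted p = 0.0673). Traf3ip1, also of IFT-B, averaged 338 ± 129 in duct cells and 922 ± 145 in basal cells, and the small GTPase Rab23 averaged 282 ± 64.3 in duct cells and 583 ± 121 in basal cells (adjusted p = 0.141 and 0.169). Tctn1, of the transition zone at the base of the cilium, averaged 748 ± 262 in duct cells and 1382 ± 171 in basal cells (adjusted p = 0.260).

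Of 71 other motile cilia genes, 36 were tested and 0 were called; 9 (25.0% of those tested) were lower and 0 higher at an unadjusted p under 0.05, beside 10.6% and 7.91% of all tested genes. The duct arrays were all lower for 24 (33.8%) and all higher for 5, beside 19.2% and 13.7% of all genes, and the median log2 fold change was -0.57. Nme5, a radial spoke protein, measured 358, 251 and 487 in duct cells, against 1209 and 1175 in basal cells (log2 fold change -1.71, standard error 0.33, adjusted p = 0.0828). Kif27, a kinesin of the motile cilium, measured 46.0, 15.98 and 54.1 in duct cells, against 375 and 238 in basal cells (log2 fold change -2.61, adjusted p = 0.0672). Ccdc114, which docks outer dynein arms, averaged 72.4 ± 51.2 in duct cells and 256 ± 100.1 in basal cells, and Efcab1, an outer dynein arm protein, averaged 147 ± 84.9 in duct cells and 392 ± 61.2 in basal cells (adjusted p = 0.191 and 0.223).

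Of 35 genes of multiciliogenesis, 28 were tested and 0 were called, with 4 (14.3% of those tested) lower and 2 higher at an unadjusted p under 0.05, shares close to the 10.6% and 7.91% of all tested genes, and a median log2 fold change of -0.16. All duct arrays were lower for 11 (31.4%) and higher for 5 (14.3%), beside 19.2% and 13.7% of all genes. Plk4, the kinase that starts centriole duplication both in dividing and in multiciliated cells, measured 643, 427 and 519 in duct cells, against 161 and 207 in basal cells (log2 fold change 1.44, adjusted p = 0.0853). Beside it, 27 of 34 cell cycle genes (79.4%) were higher on every duct array and 1 was lower on every duct array, beside 13.7% and 19.2% of all genes, with a median log2 fold change of 0.99; of the 32 tested, 0 were called. E2f4, which switches on centriole genes in multiciliated cells, averaged 99.0 ± 25.7 in duct cells and 221 ± 46.7 in basal cells (adjusted p = 0.167). The centriolar genes Poc5 and Ofd1 averaged 127 ± 10.6 and 423 ± 44.97 in duct cells, against 250 ± 7.94 and 806 ± 302 in basal cells (adjusted p = 0.130 and 0.232). The part of dividing cells in the cilia gene values was not tested.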

How the data were processed

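The authors deposited 1 linear intensity per probe set and array. The values show scaling to a trimmed mean of 500.0 on all 5 arrays (lowest and highest 2% dropped); background correction, summary method and software are not stated in the sources used here. Of 45101 probe sets, 64 controls were left out, and gene names came from the platform annotation. The probe set with the highest mean log2(intensity + 16) stood for each gene, and the lowest 40% were left out, leaving 12536 genes. The difference between duct and basal cells was taken from lmFit and eBayes in limma 3.58.1 (R 4.3.3), two-sided, without covariates, with Benjamini-Hochberg adjustment (threshold 0.05, 3 residual degrees of freedom), and was checked on simulated data. There, 2.31% of genes given a log2 change of 1 were called, 61.3% of those given 2 and 97.3% of those given 4. Of the simulated calls, 5.9% were false. Most changes of the size seen in the cilia genes would thus go uncalled. Bounds hold the dim group at the array's brightest Bacillus control.

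Genes, lists and roles were chosen with earlier results of these data known. All listed genes are named; values of every array go to regulators, genes with unadjusted p under 0.05, and the brightest and most variable genes of the other roles. Wider lists name up to 4 genes, by p, size and level. Replicate numbers come from separate pools and do not pair samples (correlations of deviations -0.08 and -0.04). Alternatives were other scalings, pseudocounts, filters and probe set choices, a trended robust fit, array weights, a replicate block and each array left out.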

Additional observations from a re-analysis of the deposited data

How the results depend on the processing

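With 5 arrays, precision is limited by their number, and for 13 of the 33 genes also by signal over background. The 122 genes called over the array became 338 with median centring, 303 with a pseudocount of 64, 36 with no filter, 408 with the lowest 60% left out, 191 with the mean of probe sets, 942 with a trended robust fit and 0 to 48 with 1 array left out. The replicate block rests on numbers that the labels do not give as pairs. With it, 0 genes were called (1608 at an unadjusted p under 0.05), and 0 cilia genes. The 63 probe sets called became 27 with no filter. Of cilia genes, Rfx3 was called, lower in duct cells, with quantile normalization (1 cilia gene, adjusted p = 0.0481), a pseudocount of 64 (1, 0.0348), the lowest 60% left out (1, 0.0249) and the mean of probe sets (1, 0.0211); with the trended fit 2 were called, Rfx3 (0.00642) and Bbs4 (0.0372). No cilia gene was called with any array left out (0 to 0). With 1 array left out, the median lay between -1.60 and -0.43 for the regulators and between -0.861 and -0.0365 for the motile axoneme genes. Fold changes that reversed were those of Rfx2 (0.0713 quantile, 0.09 median centring, 0.14 mean of probe sets, 0.0231 array weights, and -0.39 to 0.16 with 1 array left out, above 0 without duct array 1 or basal array 1), Dnali1 (-0.0322 mean of probe sets, and -1.04 without basal array 1 to 2.18 without basal array 2), Ift122 (0.35 without possibly cross-hybridising probe sets) and Ift88 (-1.41 without duct array 1 to 0.11 without duct array 2). Reversal was checked only for regulators, genes with unadjusted p under 0.05, and the brightest and most variable genes of the other roles. Other cilia genes, Mns1 and Ift172 among them, were not checked. The causes were not tested. The split of all calls was 105 higher and 17 lower, 139 and 28 with quantile normalization, 281 and 57 with median centring, 142 and 49 with the mean of probe sets, 208 and 95 with a pseudocount of 64, 250 and 158 with the lowest 60% left out, and 565 and 377 with the trended robust fit.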
